A study of Mus musculus with 27 samples.

Results

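The BCL2 family decides at the outer mitochondrial membrane whether a stressed cell dies. Its 10 genes followed here were taken as a named list, chosen with earlier results of these data known. Counts of members called therefore describe the list and do not test it. The genes were matched by symbol to the Ensembl gene identifiers of the deposited tables, which hold 51826 genes. All 10 were found, and all 10 passed the filter on low counts that kept 16428 genes for testing. The list has 8 cell-killing members and 2 protective ones. Of the cell-killing members, 6 are BH3-only genes (Bmf, Bcl2l11, Bbc3, Pmaip1, Bid and Bik) and 2 form pores (Bax and Bak1). The protective members are Bcl2l1 and Mcl1.

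RNA was sequenced from 27 whole livers of wild-type BALB/c mice, an inbred laboratory strain, 1 library per animal, over a reproductive cycle. The groups were nulliparous mice that had not been bred (NUL, n = 4), mice at day 10 of lactation (LAC, n = 3), mice at 2, 4, 6 and 8 days after the pups were removed (ID2, n = 3; ID4, n = 4; ID6, n = 6; ID8, n = 3), and mice 4 weeks after weaning (REG, n = 4). Bred mice were mated at 10 to 12 weeks of age, litters were made equal in size, pups were taken away after 10 to 14 days of lactation, and animals were matched for age. No group carried an engineered allele or received an agent, and the labels give the livers as whole organs, so every cell type of the liver is in each library.

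Total expected counts ran from 41120650 to 75664540 per library. The 7 hepatocyte markers summed to between 69684 and 155129 TPM, a level scaled to transcript length and to the library's total, and none of them was at 0. Pancreatic acinar markers summed to 2943 TPM in library ID2_31 and were next highest in ID4_15, against at most 74.8 TPM in the other 25 libraries. Title numbers under 200 belong to 7 animals, namely all of ID8, 2 of 3 ID2 animals and 2 of 4 ID4 animals, and the labels do not say what the ranges mean. In whole liver, fewer cells of a type and less RNA per cell cannot be told apart.

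The rodent liver enlarges for lactation and shrinks again after weaning, a process known as liver involution that includes the death of hepatocytes. Apoptosis through mitochondria begins when BAX and BAK open pores that let cytochrome c out, after which the apoptosome activates a cascade of caspases. BCL-XL, the product of Bcl2l1, and MCL1 hold the pore formers and their activators in check, and both are known as the main protectors of hepatocytes. BH3-only proteins are sensors: BIM (Bcl2l11) and PUMA (Bbc3) bind all protective members, NOXA (Pmaip1) binds mainly MCL1, BID links death receptors to mitochondria after caspase 8 cuts it, and BMF and BIK answer to other stresses. Bcl2l11 and Bbc3 are textbook targets of FOXO factors, and Bax, Bbc3 and Pmaip1 are textbook targets of p53.

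Bmf (ENSMUSG00000040093) spans chr2:118528757-118549687 on the minus strand of GRCm38, and Bcl2l11 (ENSMUSG00000027381) spans chr2:128126038-128162547 on the plus strand. Bax (ENSMUSG00000003873) spans chr7:45461697-45466898 on the minus strand, and Bbc3 (ENSMUSG00000002083) spans chr7:16308393-16318205 on the plus strand. The 250 bases before an annotated transcription start are shown for these 4, because Bmf and Bcl2l11 varied together over the livers, Bax moved the other way, and Bbc3 and Bcl2l11 were the members whose windows held a FOXO element. RefSeq, on GRCm38.p6, gave 15 start sites for 8 of the 10 members. The Bmf window is 1 of 3 and lies at chr2:118547600-118547849, the Bcl2l11 window, 1 of 2, at chr2:128125788-128126037, the Bbc3 window, 1 of 3, at chr7:16310011-16310260 and the Bax window at chr7:45466899-45467148. Capitals mark the FOXO element TGTTTAC on either strand in Bcl2l11 and Bbc3, and the E-box CACGTG in Bax.
Bmf: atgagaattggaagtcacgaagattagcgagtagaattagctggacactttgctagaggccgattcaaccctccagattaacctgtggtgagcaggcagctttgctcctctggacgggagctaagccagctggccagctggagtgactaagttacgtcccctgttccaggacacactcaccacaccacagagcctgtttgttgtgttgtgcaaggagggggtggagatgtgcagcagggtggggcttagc
Bcl2l11: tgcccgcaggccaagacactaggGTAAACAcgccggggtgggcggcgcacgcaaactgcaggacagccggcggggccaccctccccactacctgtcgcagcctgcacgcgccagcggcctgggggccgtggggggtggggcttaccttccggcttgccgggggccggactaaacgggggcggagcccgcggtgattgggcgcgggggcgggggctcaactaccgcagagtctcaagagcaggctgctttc
Bbc3: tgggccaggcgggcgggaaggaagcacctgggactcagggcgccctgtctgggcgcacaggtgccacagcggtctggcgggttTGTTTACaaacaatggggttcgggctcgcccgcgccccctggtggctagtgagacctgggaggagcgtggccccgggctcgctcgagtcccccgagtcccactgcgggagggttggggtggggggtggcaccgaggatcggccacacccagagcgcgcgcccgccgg
Bax: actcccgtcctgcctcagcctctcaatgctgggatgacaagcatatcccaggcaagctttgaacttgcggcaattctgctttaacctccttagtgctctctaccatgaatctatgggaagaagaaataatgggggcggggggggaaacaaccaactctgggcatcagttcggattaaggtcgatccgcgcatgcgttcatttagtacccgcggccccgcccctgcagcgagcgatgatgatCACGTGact
Counted back from the start site, the FOXO element stood at position -227 in Bcl2l11 and at -167 in Bbc3, and the E-box stood at -9 in Bax. Of 32851 windows of the same length over all genes, 3.17% held the FOXO element and 6.02% the E-box, and the matches in the members' windows did not overlap. Another of the 3 Bbc3 windows held an E-box at -64, and the windows of Bcl2l1, Mcl1, Bid and Bak1 held neither run of letters. Neither did the 3 Bmf windows, nor the second Bcl2l11 window. A match is a run of letters and not a measured binding site.

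Across the 7 stages, 7 of the 10 members differed by the joint test, edgeR's quasi-likelihood test with Benjamini-Hochberg adjustment over all genes tested, against 27% of all genes tested. The 7 were all cell-killing. Bax had an adjusted p of 1.76e-04, Bcl2l11 of 0.00620, Bid of 0.00916 and Bmf of 0.0135. Bik followed at 0.0232, Bak1 at 0.0373 and Pmaip1 at 0.0389. Bbc3 (adjusted p = 0.0816), Mcl1 (0.140) and Bcl2l1 (0.469) did not pass. Leaving out 1 library at a time left between 4 and 8 members past the threshold, with 4 when ID4_15 or ID4_215 was left out. Bmf, Bcl2l11, Bid and Bax passed in all 27 of those fits, whereas Pmaip1 missed in 14, Bak1 in 10 and Bik in 2, with largest adjusted p of 0.0907 without LAC_240 for Pmaip1, 0.0935 without ID4_13 for Bak1 and 0.0625 without ID4_15 for Bik.

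**Figure D1:**
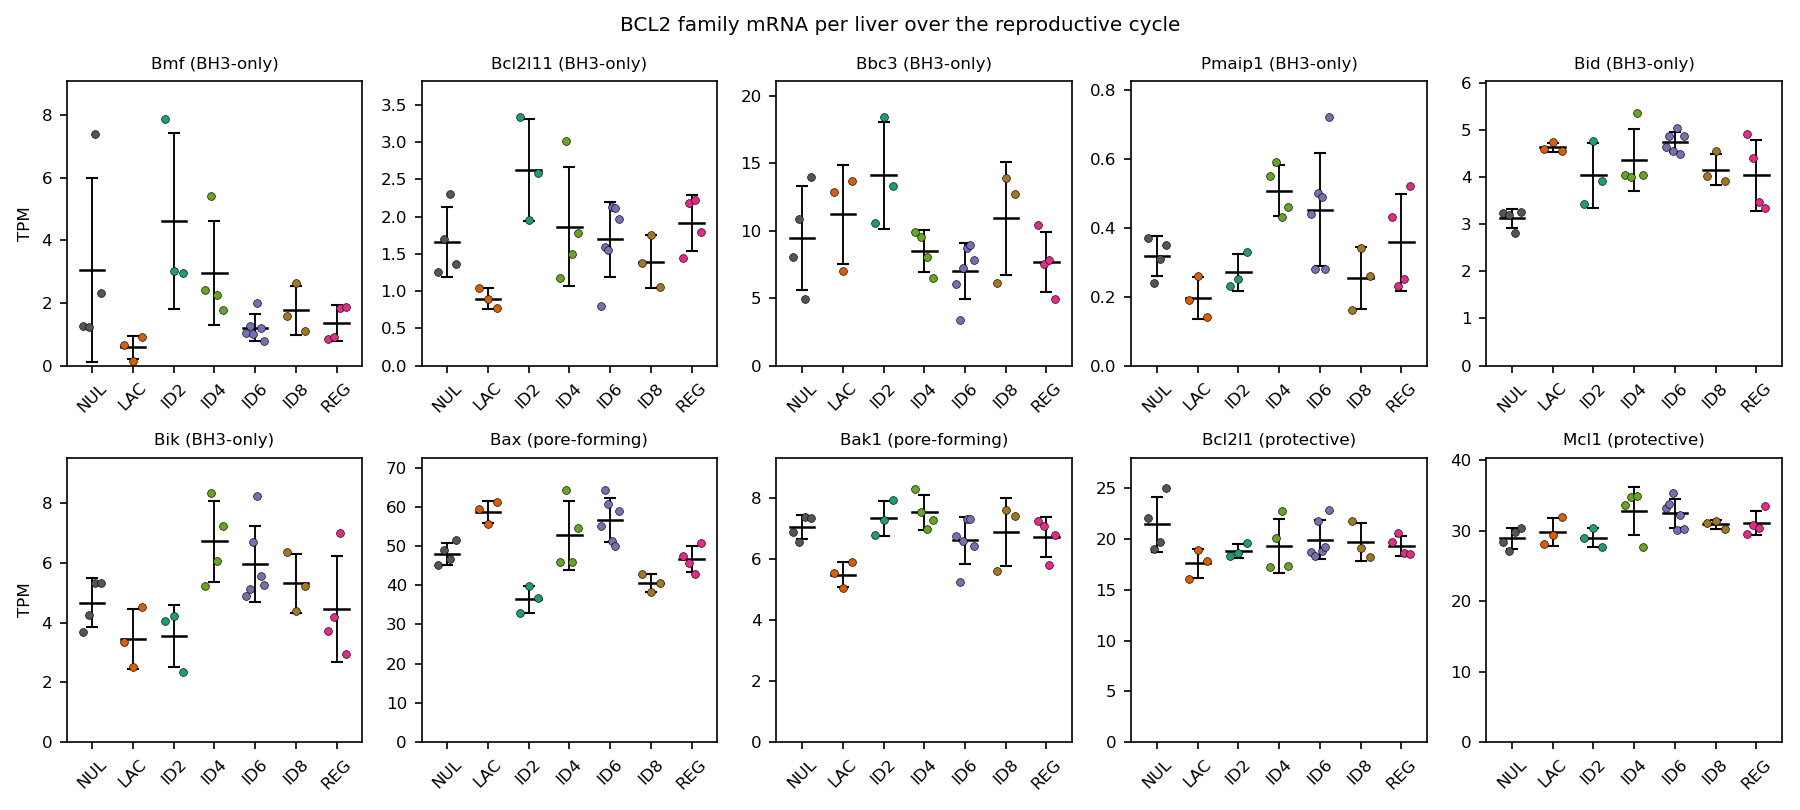
TPM of each of the 10 members (vertical axis, from 0) in each liver (points), by stage (horizontal axis), with the mean (bar) and SD (whiskers) of the 3 to 6 livers of a stage. Bmf and Bcl2l11 were lowest on average in LAC and highest in ID2, Bax was highest on average in LAC and lowest in ID2, and the stage means of Mcl1 lay between 28.9 and 32.8 TPM.

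Levels per transcript length placed the members far apart. Bax was the most abundant on average at every stage, with stage means between 36.4 and 58.8 TPM, followed by Mcl1 between 28.9 and 32.8 TPM and Bcl2l1 between 17.6 and 21.4 TPM. Bbc3 lay between 7.02 and 14.1 TPM and Bak1 between 5.48 and 7.52 TPM. Pmaip1 was the scarcest, with stage means between 0.197 and 0.508 TPM and 13 to 93 counts per library. When each gene's 7 stages were ordered by mean TPM, livers of neighbouring stages overlapped in all 6 steps for 8 genes and in 5 of 6 for Bcl2l11 and Bid.

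In lactation 3 of the 6 BH3-only genes were called, Bmf and Bcl2l11 lower and Bid higher, and Bax was called higher among the pore formers. Of the 10 members, 4 passed the test between LAC and NUL, against 11.2% of all genes tested. The 2 higher members stand beside 5.19% of genes called higher, and the 2 lower ones beside 6.00% called lower. The median log2 change was -0.21 over the 10 members and -0.01 over all genes tested.

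Bmf, a BH3-only gene whose protein is held on the cytoskeleton in healthy cells, stood at 1.27, 1.24, 7.41 and 2.33 TPM in the 4 NUL livers and at 0.67, 0.16 and 0.90 TPM in the 3 LAC livers. LAC_200 and LAC_213 had 39 and 37 counts, so their TPM of 0.67 and 0.16 lay further apart than their counts. The groups did not overlap, and NUL_226, at 7.41 TPM, lay far above the other NUL livers. In counts Bmf was 7.89-fold lower in LAC, a log2 change of -2.98 (SE 0.74, adjusted p = 0.0116, edgeR). That call rested on single livers: the adjusted p was 0.0531 without LAC_200, 0.0595 without LAC_213 and 0.0522 without NUL_226, where the log2 change was -1.97. With 37 to 58 counts in each LAC library, this is also the thinnest value among the called members.

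Bcl2l11, which encodes BIM, stood at 1.25, 1.70, 2.31 and 1.37 TPM in NUL and at 1.04, 0.89 and 0.77 TPM in LAC. All 3 LAC livers lay below all 4 NUL livers. The log2 change was -0.84 (SE 0.28, adjusted p = 0.0477, edgeR). The adjusted p was 0.185 without LAC_213, 0.168 without LAC_240, 0.0709 without NUL_221, 0.149 without NUL_226 and 0.0618 without NUL_227. It also missed in 7 of 10 other settings, up to 0.150 on log2(TPM + 1) with limma.

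Bid, the BH3-only gene cut by caspase 8, went up where the other 2 went down. Its level was 3.23, 3.20, 2.82 and 3.25 TPM in NUL and 4.60, 4.74 and 4.54 TPM in LAC, with a gap between the groups. The log2 change was 0.61 (SE 0.14, adjusted p = 0.00346, edgeR), and the call was kept without any 1 of the 7 livers. Bid shares 913 bases of its span with Bcl2l13 on the opposite strand, which did not differ between LAC and NUL (log2 change 0.04, adjusted p = 0.874, edgeR).

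Bax stood at 45.1, 48.9, 46.6 and 51.5 TPM in NUL and at 59.4, 55.7 and 61.2 TPM in LAC. Every LAC liver was above every NUL liver. The log2 change was 0.41 (SE 0.11, adjusted p = 0.0143, edgeR), with an adjusted p of 0.0558 without LAC_200 and 0.0876 on log2(TPM + 1) with limma. Bak1, the other pore former, stood at 6.86, 6.55, 7.37 and 7.33 TPM in NUL and at 5.52, 5.04 and 5.88 TPM in LAC, without overlap, but its log2 change of -0.19 did not pass (SE 0.12, adjusted p = 0.343).

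The protective genes did not pass between LAC and NUL. Bcl2l1 stood at 22.1, 19.0, 19.7 and 25 TPM in NUL and at 16.1, 18.9 and 17.8 TPM in LAC, Mcl1 at 28.4, 27.1, 29.8 and 30.4 TPM and at 28.1, 29.4 and 32.0 TPM. LAC lay just below NUL for Bcl2l1, and the groups overlapped for Mcl1. Bcl2l1 had a log2 change of -0.23 (95% interval -0.45 to -0.01, adjusted p = 0.178, edgeR), and Mcl1 of 0.10 (-0.07 to 0.28, adjusted p = 0.503). Among the other BH3-only genes, Bbc3, a p53 and FOXO target, stood at 8.04, 10.9, 4.91 and 14.0 TPM in NUL and at 12.9, 7.02 and 13.7 TPM in LAC. Bik stood at 3.70, 4.27, 5.35 and 5.35 TPM in NUL and at 3.35, 2.53 and 4.53 TPM in LAC, and Pmaip1 at 0.37, 0.24, 0.31 and 0.35 TPM and at 0.19, 0.26 and 0.14 TPM. Livers of the 2 groups overlapped for all 3. Bbc3 (0.27, -0.35 to 0.90), Pmaip1 (-0.60, -1.35 to 0.16) and Bik (-0.33, -0.87 to 0.21) had intervals wide enough to hold a change of the size seen in Bax.

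Other cell types moved with lactation as well. Summed Kupffer cell and macrophage markers ran from 261 to 317 TPM in NUL and from 162 to 228 TPM in LAC, and 5 of 8 were lower. T and NK cell markers summed to between 4.94 and 7.69 TPM in NUL and between 1.5 and 3.04 TPM in LAC, and 3 of 9 were lower. Hepatocyte markers summed to between 75750.5 and 96375 TPM in NUL and between 133441 and 155129 TPM in LAC, and 2 of 7 were higher. Markers of stellate cells (2 of 6), bile duct cells (2 of 5) and B and plasma cells (2 of 6) were lower too, and none of these lists had a marker called higher. Summed endothelial markers (145 to 156 TPM in NUL, 112 to 125 TPM in LAC), stellate cell markers (143 to 162 and 99.6 to 109 TPM), bile duct markers (32.9 to 47.7 and 19.4 to 26.7 TPM) and pancreatic acinar markers (27.1 to 39.8 and 14.9 to 18.7 TPM) did not overlap either. None of the 12 acinar markers was called, and their median log2 change was 0.71, against the direction of their sum. Of the 12, 7 were at 0 in every NUL liver and 4 in every LAC liver. The part of these shifts in the BCL2 family results was not tested.

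**Figure D2:**
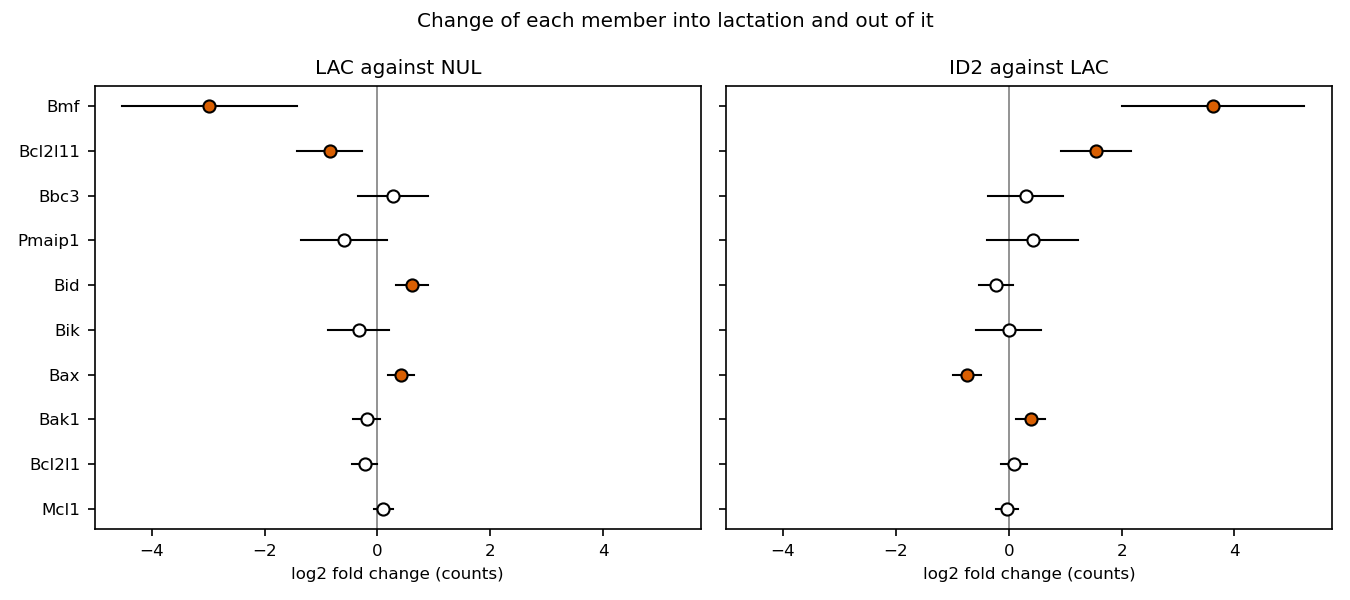
Log2 fold change of each member from the counts (horizontal axis) with its 95% interval (line) for LAC against NUL and for ID2 against LAC; filled points passed the test over all genes at an adjusted p under 0.05. Bmf lies at -2.98 in the first comparison and at 3.62 in the second, Bax at 0.41 and -0.74, and the 2 protective genes lie between -0.23 and 0.10 in both.

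By 2 days after weaning Bmf, Bcl2l11 and Bak1 were higher than in lactation and Bax was lower. These 4 of 10 members passed the test between ID2 and LAC, against 16.1% of all genes tested. The 3 higher members stand beside 8.48% of genes called higher, and Bax beside 7.64% called lower. This comparison shares its LAC livers with the one above, so opposite signs in the 2 comparisons are not separate findings.

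Bmf stood at 7.87, 3.01 and 2.97 TPM in the 3 ID2 livers, against 0.67, 0.16 and 0.90 TPM in LAC. Each ID2 liver held more than 3 times the Bmf of the highest LAC liver, and ID2_224 was the highest of all 27 in TPM. In counts the rise was 12.3-fold, a log2 change of 3.62 (SE 0.77, adjusted p = 0.00358, edgeR). The call was kept without any 1 of the 6 livers, with log2 changes between 3.17 and 3.86, and with a clock score added to the model (3.05, adjusted p = 0.0250). Over the 10 other settings, which all kept the call, the log2 change ran from 1.75 to 3.66. The stage means in TPM lay 8.01-fold apart.

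Bcl2l11 stood at 3.34, 1.96 and 2.58 TPM in ID2, all above the highest LAC value of 1.04 TPM. Its log2 change was 1.54 (SE 0.29, adjusted p = 8.95e-04, edgeR), a 2.92-fold rise. Leaving out any 1 liver gave values between 1.33 and 1.77, all past the threshold, and the clock score gave 1.40 (adjusted p = 0.0140).

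Bax fell to 32.8, 39.7 and 36.7 TPM in ID2, below the lowest liver of LAC and also below that of NUL. The fall was 1.67-fold, a log2 change of -0.74 (SE 0.12, adjusted p = 1.44e-04, edgeR), and leaving out single livers moved it only between -0.75 and -0.71. A predicted gene on the same strand, Gm45808, shares 915 bases of span with Bax. Its own change was 0.10 (adjusted p = 0.909), and the summed TPM of the pair was 61.6 to 72.6 in LAC and 41.9 to 50.3 in ID2. Bak1 went the other way, to 6.77, 7.28 and 7.91 TPM in ID2 against 5.04 to 5.88 TPM in LAC, a log2 change of 0.39 (SE 0.12, adjusted p = 0.0314, edgeR). That call was lost without ID2_224 (adjusted p = 0.0588), ID2_39 (0.134), LAC_200 (0.0600), LAC_213 (0.129) or LAC_240 (0.0525). Bak1 lies wholly within the span of Ggnbp1 on the opposite strand, which did not pass (log2 change -0.25, adjusted p = 0.351).

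Bcl2l1 (log2 change 0.09, 95% interval -0.14 to 0.33) and Mcl1 (-0.03, -0.22 to 0.16) did not pass, and their intervals leave out a change as large as the one in Bak1. Bcl2l1 stood at 18.3, 18.6 and 19.6 TPM in ID2 and at 16.1, 18.9 and 17.8 TPM in LAC. Mcl1 stood at 29.0, 30.4 and 27.7 TPM in ID2 and at 28.1, 29.4 and 32.0 TPM in LAC. Livers of the 2 stages overlapped for both genes. Bbc3 reached its highest value, 18.4 TPM, in ID2_31, but its change of 0.30 (-0.37 to 0.96) did not pass, nor did those of Pmaip1 (0.43, -0.38 to 1.23), Bid (-0.22, -0.52 to 0.08) and Bik (0.00, -0.58 to 0.58).

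Several properties of the livers moved with this step. The clock score, the mean log2 level of clock genes such as Arntl minus that of clock genes such as Dbp, was between 1.15 and 2.77 in LAC and between -1.02 and 1.12 in ID2. Kupffer cell and macrophage markers summed to 246 to 275 TPM in ID2, and 5 of 8 were higher than in LAC. So were 3 of 6 endothelial and 7 of 12 pancreatic acinar markers, and 4 of the acinar markers were at 0 in every LAC liver. Acinar markers summed to 2943 TPM in ID2_31, 17.7 TPM in ID2_224 and 12.9 TPM in ID2_39. In LAC they summed to 14.9 to 18.7 TPM, so the acinar shift rested on ID2_31. Hepatocyte markers summed to 133441 to 155129 TPM in LAC and 103918 to 104651 TPM in ID2, and 1 of 7 was lower. T and NK cell markers summed to 1.5 to 3.04 TPM in LAC and 3.21 to 5.58 TPM in ID2, bile duct markers to 19.4 to 26.7 TPM and 28.4 to 37.7 TPM, and stellate cell markers to 99.6 to 109 TPM and 112 to 125 TPM, with 1 marker of each list higher. Summed endothelial markers (112 to 125 TPM in LAC, 143 to 146 TPM in ID2) and neutrophil markers (6.24 to 10.3 and 10.6 to 13.9 TPM) did not overlap either. None of the 6 neutrophil markers tested was called, and their median log2 change was -0.50, against the direction of their sum. Without ID2_31, the liver with pancreatic transcripts, the log2 change was 3.83 for Bmf (adjusted p = 0.00599), 1.77 for Bcl2l11 (adjusted p = 4.29e-04) and -0.75 for Bax (adjusted p = 8.74e-04, edgeR). With the title number range as a covariate it was 3.50, 1.54 and -0.79, and all 3 calls were kept, while Bak1 had an adjusted p of 0.177, and of 0.285 with the clock score. The part of these other cell types was not tested.

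Set against NUL, none of the 10 members passed at ID2 (3.24% of all genes tested did), and 3 had an unadjusted p under 0.05. DESeq2 called 0 there, and limma on log2(TPM + 1) called 1, Bax. Bmf in ID2 overlapped NUL, with a log2 change of 0.64 (SE 0.62) and an adjusted p of 0.662 (edgeR). That value ran from 0.19 without ID2_224 to 1.65 without NUL_226 and was -0.05 with the clock score in the model. Bax in ID2 lay below all NUL livers, with a log2 change of -0.33 and an adjusted p of 0.106 (edgeR). It passed in 3 of 10 other settings, with limma on log2(TPM + 1) (adjusted p = 0.0448) and on log2(TPM + 0.1) (0.0452) and with edgeR on these groups alone (0.0435), and in none of the 7 fits without 1 liver. Hepatocyte markers (75750.5 to 96375 TPM in NUL, 103918 to 104651 TPM in ID2) and stellate cell markers (143 to 162 and 112 to 125 TPM) did not overlap between these groups, and their part was not tested.

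Within a stage, the livers with much Bmf tended to be those with much Bcl2l11. In 5 of the 7 stages the same liver was highest for both genes, among them NUL_226 (7.41 and 2.31 TPM), ID2_224 (7.87 and 3.34 TPM) and ID4_15 (5.42 and 3.01 TPM). Over the 27 libraries, Pearson's r of log2 CPM, counts scaled to the library's total, was 0.81 and Spearman's rho was 0.76, and Pearson's r was 0.77 without LAC_213 and LAC_200, the 2 libraries farthest from the median of Bmf. After the mean of each stage was taken away, r was 0.59. The r over all libraries was the highest of the 45 pairs of members, so it is a description with no p, and within stages Bbc3 and Bak1 had the same r of 0.59. Bmf and Bax had r = -0.49 over all libraries and 0.06 within stages.

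**Figure D3:**
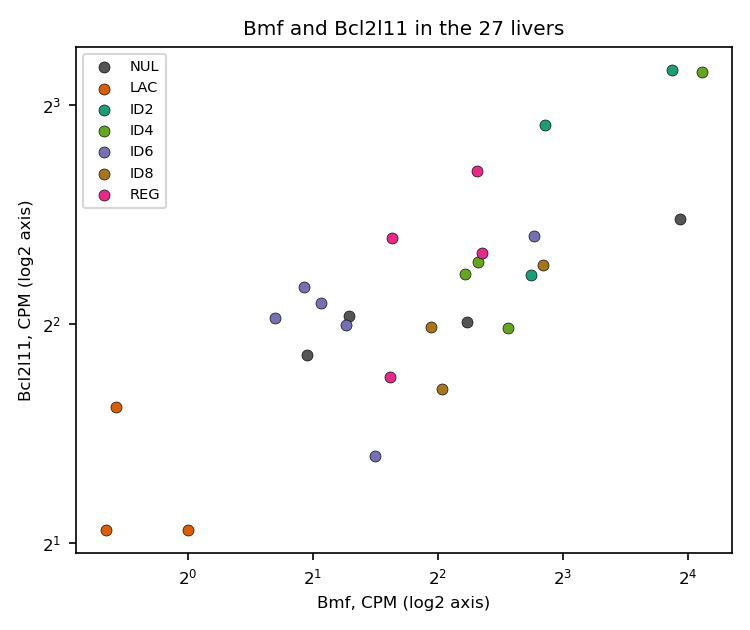
Bmf (horizontal) and Bcl2l11 (vertical) in CPM on log2 axes, 1 point per liver, coloured by stage. The 3 LAC livers lie at the lower left, with 0.636 to 1.0 CPM of Bmf, and ID2_224 (14.6 CPM) and ID4_15 (17.3 CPM) lie at the upper right. NUL_226 lies as far right, with 15.3 CPM of Bmf, but lower, with 5.57 CPM of Bcl2l11.

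Among 10551 tested genes with a mean of at least 1 on the log2 CPM scale, the 5 most like Bmf over the 27 libraries included Klkb1 (r = 0.86), Nr3c1 (0.85), Fgfr2 (0.84) and F11 (0.82). Klkb1 and F11 encode the clotting proteases plasma prekallikrein and factor XI, and Nr3c1 encodes the glucocorticoid receptor. Fgfr2 is a receptor for fibroblast growth factors. Over the 7 stage means the 5 most alike were Agxt2, Nat8f2 and Clcn7 (each 0.99), Slc39a3 and Cutc (each 0.98). Bcl2l11 ranked 9th over libraries, and the gene most like Bcl2l11 was Bmf. For Bax the highest was Ctsz (0.86), a cathepsin, and the p53 targets Aen (0.76) and Cdkn1a (0.73) ranked 5th and 7th; the Bcl2l11 and Bax rankings were looked up after the values had been seen.

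From 2 to 4 days after weaning Bax rose again, to 46.0, 64.3, 46.0 and 54.5 TPM, each above every ID2 liver. Its log2 change was 0.56 (SE 0.11, adjusted p = 0.00689, edgeR), and it was the 1 member of 10 to pass between ID4 and ID2, where 1.49% of all genes tested did, while DESeq2 called 2, Bax and Bik. The call was kept without any 1 of the 7 livers, but the adjusted p was 0.0687 with the clock score in the model, whose range was 1.04 to 2.46 in ID4. Kupffer cell and macrophage markers summed to 246 to 275 TPM in ID2 and 398 to 473 TPM in ID4, and hepatocyte markers to 103918 to 104651 TPM and 69684 to 77706 TPM. Stellate cell markers (112 to 125 TPM in ID2, 127 to 142 TPM in ID4), endothelial markers (143 to 146 and 149.7 to 178 TPM) and neutrophil markers (10.6 to 13.9 and 14 to 31.8 TPM) were also without overlap. The part of these 5 lists was not tested. Bik, a BH3-only protein of the endoplasmic reticulum, stood at 5.22, 8.36, 6.07 and 7.26 TPM in ID4 against 4.05, 4.24 and 2.36 TPM in ID2. The groups did not overlap, and the log2 change of 0.94 fell short with edgeR (SE 0.26, adjusted p = 0.0616) and passed in 2 of 10 other settings, DESeq2 (adjusted p = 0.0163) and the fit of the 2 groups alone (0.0417). Bbc3, at 6.46 to 9.89 TPM in ID4, lay below every ID2 liver, but its change of -0.56 (SE 0.30) did not pass. Pmaip1 also did not overlap, at 0.43 to 0.59 TPM in ID4 and 0.23 to 0.33 TPM in ID2, and its change of 0.92 (SE 0.35) did not pass.

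Against NUL, 2 of 10 members passed at ID4, where 4.25% of all genes tested did. Bid, at 4.05, 3.99, 5.35 and 4.04 TPM, was higher than in all NUL livers (log2 change 0.58, SE 0.13, adjusted p = 0.00703, edgeR), also without any 1 liver. Mcl1, at 33.6, 34.8, 35.0 and 27.7 TPM against 27.1 to 30.4 TPM in NUL, had a log2 change of 0.27 (SE 0.08, adjusted p = 0.0424), and the groups overlapped through ID4_215. The Mcl1 call was lost in 7 of 8 fits without 1 liver: without ID4_13 (adjusted p = 0.10), ID4_15 (0.109), ID4_211 (0.124), NUL_220 (0.0685), NUL_221 (0.123), NUL_226 (0.0618) or NUL_227 (0.0883). It was also lost in 7 of 10 other settings, up to 0.217. Kupffer cell and macrophage markers summed to 398 to 473 TPM in ID4, with 6 of 8 higher than in NUL. Stellate cell markers summed to 143 to 162 TPM in NUL and 127 to 142 TPM in ID4, also without overlap, with 1 of 6 lower, and 1 of 5 bile duct markers was lower. The part of these cell types in the 2 calls was not tested.

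Between ID6 and ID4, 1 of 10 members passed, against 8.53% of all genes tested, while DESeq2 called 2, Bak1 and Bmf, and limma on TPM called 0. Bak1 ran from 5.24 to 7.30 TPM with a median of 6.67 in ID6 and stood at 8.29, 7.53, 6.97 and 7.28 TPM in ID4, with overlap. Its log2 change was -0.31 (SE 0.10, adjusted p = 0.0423, edgeR), and 7 of 10 fits without 1 liver lost the call: without ID4_13 (adjusted p = 0.149), ID4_15 (0.0764), ID4_211 (0.0506), ID4_215 (0.0884), ID6_209 (0.105), ID6_230 (0.0545) or ID6_232 (0.0872). It was also lost in 8 of 10 other settings, up to 0.234. Bmf ran from 0.78 to 2.00 TPM with a median of 1.11 in ID6, and its change of -1.48 (SE 0.52) had an adjusted p of 0.0862 with edgeR and 0.0393 with DESeq2. Without ID4_15 it was -0.82 (adjusted p = 0.404), and without ID6_218 it was -1.92 and passed (adjusted p = 0.0239). Hepatocyte markers summed to 69684 to 77706 TPM in ID4 and 81553 to 114132 TPM in ID6, and erythroid markers to 1218 to 3251 TPM and 197 to 847 TPM, both without overlap, and their part was not tested.

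Against NUL, Bid was the 1 member of 10 to pass at ID6, where 1.08% of all genes tested did. The 6 ID6 livers lay between 4.49 and 5.03 TPM with a median of 4.75, above every NUL liver (log2 change 0.50, SE 0.12, adjusted p = 0.0231, edgeR). The call was lost without ID6_201 (adjusted p = 0.0625), ID6_216 (0.0605), NUL_221 (0.0719), NUL_226 (0.113) or NUL_227 (0.0614). Kupffer cell and macrophage markers (261 to 317 TPM in NUL, 372 to 518 TPM in ID6), endothelial markers (145 to 156 and 161 to 178 TPM) and erythroid markers (1144 to 2408 and 197 to 847 TPM) did not overlap between these groups, and their part was not tested. Bid was higher than in every NUL liver at all 6 later stages, which all share the same 4 NUL livers.

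Bax was lower again at 8 days, at 42.8, 38.2 and 40.5 TPM against 49.9 to 64.3 TPM with a median of 57.0 in ID6, without overlap. It was the 1 member to pass between ID8 and ID6, where 4.12% of all genes tested did (log2 change -0.37, SE 0.10, adjusted p = 0.0380, edgeR). The call was lost without ID6_201 (adjusted p = 0.0583), ID6_209 (0.0827), ID6_216 (0.0670), ID6_232 (0.0562), ID8_101b (0.0774), ID8_14 (0.138) or ID8_98b (0.125). All ID8 animals and no ID6 animal had title numbers under 200, and the adjusted p was 0.178 with that range in the model. Erythroid markers summed to 197 to 847 TPM in ID6 and 51.9 to 107 TPM in ID8, with 1 of 6 at 0 in both groups. Kupffer cell and macrophage markers summed to 372 to 518 TPM in ID6 and 251 to 368 TPM in ID8, and T and NK cell markers to 7.07 to 11 TPM and 4.89 to 6.33 TPM, both without overlap. The part of these 3 cell types was not tested.

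No member passed between ID8 and NUL (0.499% of all genes tested did), between REG and NUL (0.0852%) or between REG and ID8 (0.0487%). In those comparisons 1, 1 and 0 members had an unadjusted p under 0.05, and DESeq2 called 0 in each. At 4 weeks after weaning Bmf stood at 0.84, 0.91, 1.84 and 1.86 TPM, Bcl2l11 at 1.44, 2.19, 2.23 and 1.80 TPM, and Bax at 47.4, 45.6, 42.8 and 50.8 TPM, all overlapping NUL. Mcl1 stood there at 29.6, 30.8, 30.4 and 33.5 TPM and Bcl2l1 at 19.7, 20.6, 18.6 and 18.5 TPM, both again overlapping NUL. Bid, at 4.92, 4.40, 3.47 and 3.34 TPM, was above all NUL livers, with REG_239 only just so, and its log2 change of 0.31 did not pass (adjusted p = 0.562).

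The balance between the classes shifted in its makeup. In ID2 the 6 BH3-only genes made up 36.3 to 42.7% of all cell-killing TPM, against 20.4 to 26.8% in LAC and 25.6 to 31.2% in NUL, and 28.9 to 37.6% in ID8 overlapped ID2. Bbc3, which passed in no comparison, was the largest term of the BH3-only sum in ID2, with a mean of 14.1 TPM beside 29.2 TPM for the sum. Bax and Bak1 together summed to 60.7 to 67.1 TPM in LAC and 39.6 to 47.0 TPM in ID2. Bcl2l1 and Mcl1 summed to 44.2 to 49.8 TPM in LAC and 47.2 to 49.0 TPM in ID2. Bmf and Bcl2l11 together summed to 1.05 to 1.71 TPM in LAC and 4.97 to 11.2 TPM in ID2. Cell-killing over protective TPM had a median of 1.55 in NUL, 1.84 in LAC and 1.48 in ID2, but in CPM, which are not per length, the direction from LAC to ID2 turned, with medians of 0.616 and 0.652. In TPM, Bax was the largest single term of that sum at every stage. These sums were formed from members chosen with results known and carry no test.

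**Figure D4:**
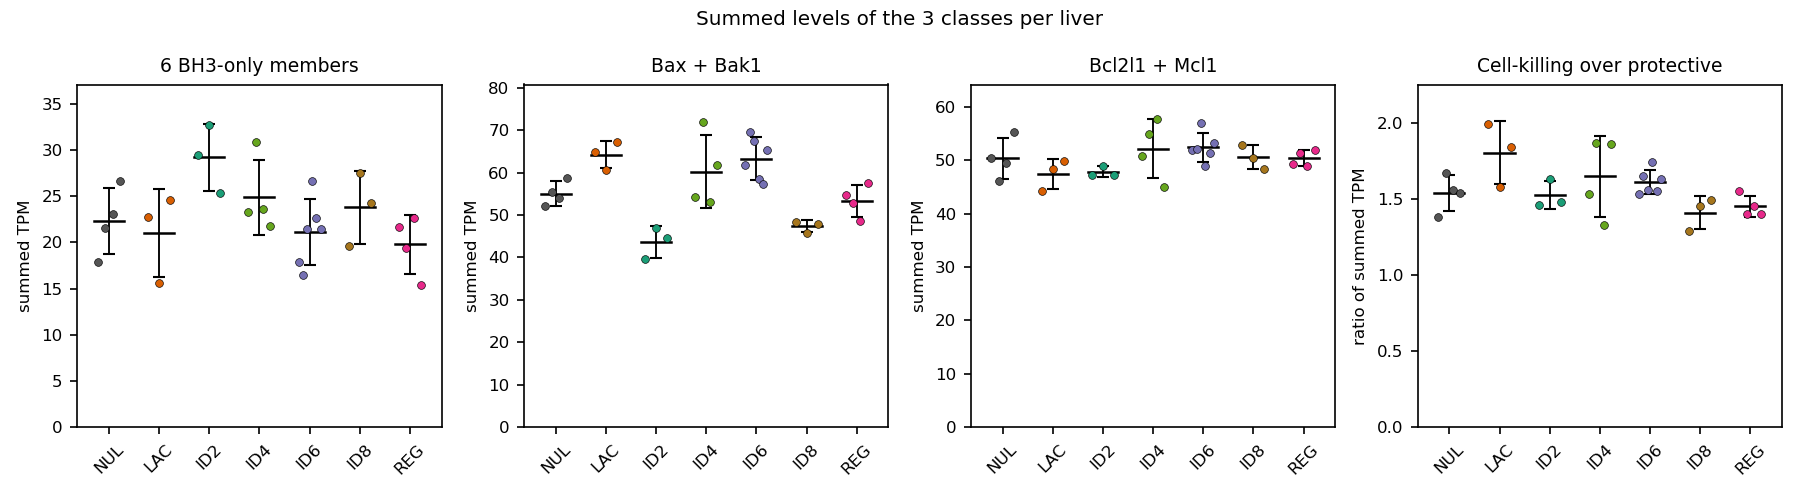
Summed TPM per liver (points) of the 6 BH3-only genes, of Bax and Bak1 and of Bcl2l1 and Mcl1, and the ratio of cell-killing to protective TPM (vertical axes, from 0), by stage, with mean and SD. The BH3-only sum was 25.4 to 32.7 TPM in ID2, the stage with the lowest mean Bax and Bak1 sum, and the protective sum overlapped between LAC and ID2.

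Downstream of the pore, Casp6, which encodes an executioner caspase, was lower in LAC than in NUL and higher in ID2 than in LAC. Of 17 genes of the apoptosome, caspases and their inhibitors, 4 passed the joint test (among them Casp6, Cycs and Casp9), a share below the 27% over all genes tested. In LAC against NUL 2 were lower (6.00% over all genes), and in ID2 against LAC 3 were higher and 2 lower (8.48% and 7.64% over all genes). The list's median log2 change was -0.10 between ID2 and LAC and 0.02 over all genes tested. Casp6 stood at 26.3 to 31 TPM in NUL, 15.2 to 21.6 TPM in LAC and 25.3 to 32.5 TPM in ID2. Its log2 change was -0.66 in LAC (adjusted p = 0.00196) and 0.79 in ID2 against LAC (adjusted p = 6.04e-04), both kept without any 1 liver. Cycs, which encodes cytochrome c, fell by 0.37 on the log2 scale from LAC to ID2 (adjusted p = 0.0167), lost without ID2_31 (0.116) or LAC_213 (0.152), and 0.183 with the title number range in the model. Casp9, the initiator caspase of the apoptosome, had 0.30 in that step (adjusted p = 0.146). Also called between ID2 and LAC, and described after their values were seen, were Diablo, an antagonist of caspase inhibitors (0.32, adjusted p = 0.0395, lost in all 6 fits without 1 liver, up to 0.179 without LAC_240), and Dffa, the inhibitor of the apoptotic nuclease (-0.60, adjusted p = 0.00740, kept in all 6, and 0.0724 with the clock score).

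**Figure D5:**
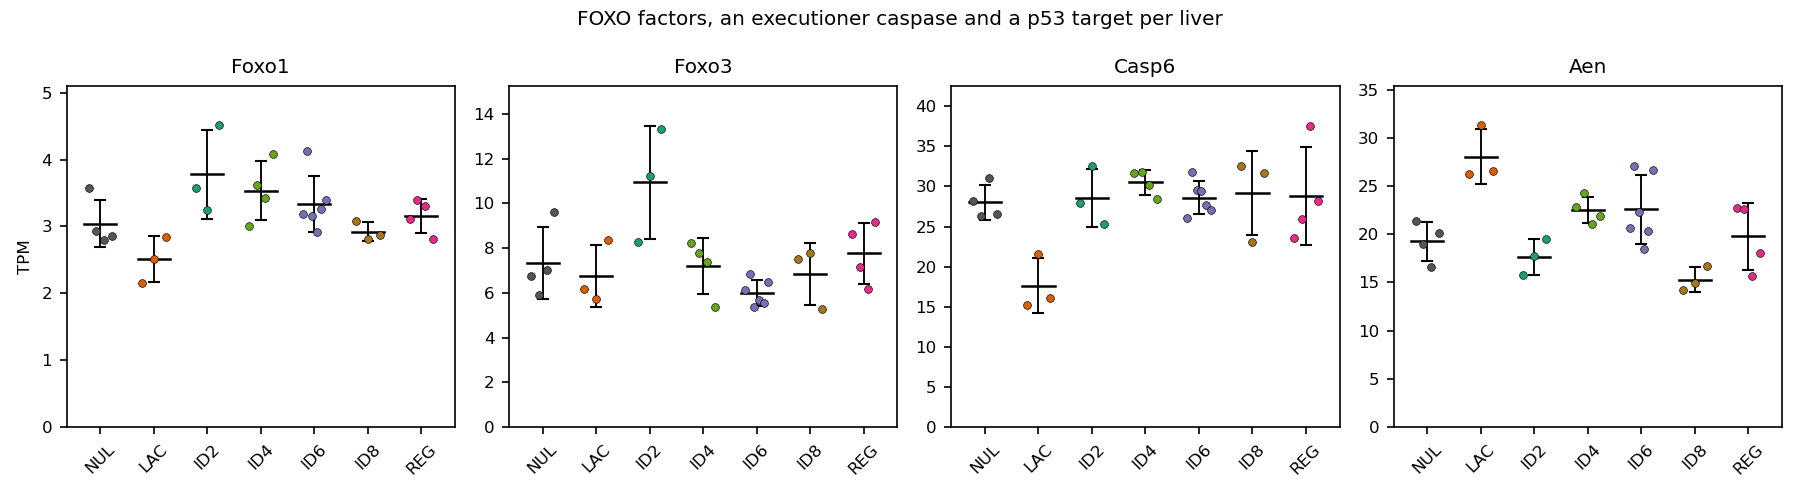
TPM per liver (points; vertical axis from 0) of the FOXO factors Foxo1 and Foxo3, the executioner caspase Casp6 and the p53 target Aen, by stage, with mean and SD. Casp6 lies at 15.2 to 21.6 TPM in LAC and 25.3 to 32.5 TPM in ID2, and Aen at 26.3 to 31.3 TPM and 15.8 to 19.5 TPM.

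Among 19 stress and FOXO regulators of BH3-only genes, 18 were tested and 11 passed the joint test, against 27% of all genes tested. Between ID2 and LAC, 5 were higher and 1 was lower (8.48% and 7.64% over all genes), and the list's median was 0.19. Foxo3 rose by 0.52 on the log2 scale (SE 0.13, adjusted p = 0.00657, edgeR), with a level of 5.74 to 8.34 TPM in LAC and 8.29 to 13.3 TPM in ID2. The Foxo3 call was lost without LAC_213 (0.37, adjusted p = 0.0684) and in 3 of 10 other settings, among them the model with the clock score (0.22, adjusted p = 0.258). Stat3, a cytokine-activated transcription factor, rose by 0.82 (adjusted p = 2.67e-04), and Trib3, a stress-induced pseudokinase, by 1.08 (adjusted p = 0.00178). Atf4, the transcription factor of the integrated stress response that induces Trib3, fell by 0.74 (adjusted p = 0.00259). Stat3, Trib3 and Atf4 kept their calls without any 1 liver and in the 10 other settings. Foxo1 and Nr3c1, named after their values were seen, rose by 0.57 (adjusted p = 0.00420) and 0.43 (adjusted p = 0.00657, 0.0621 without LAC_213 and 0.121 with the title number range in the model). Between LAC and NUL, 2 of the regulators were higher and 1 lower (5.19% and 6.00% over all genes), the lower one being Nr3c1 (-0.31, adjusted p = 0.0359, lost in 4 of 7 fits without 1 liver, up to 0.247 without LAC_213).

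Among p53 targets, Aen was called higher in LAC than in NUL and lower in ID2 than in LAC, as Bax was. Of 14 genes, p53 and targets outside the 10 members, 8 passed the joint test (27% of all genes tested did), 3 were higher and 1 lower in LAC than in NUL (5.19% and 6.00% over all genes), and 1 was higher and 3 were lower in ID2 than in LAC (8.48% and 7.64%). The medians were 0.31 and -0.22, beside -0.01 and 0.02 over all genes tested. Aen, a nuclease induced by p53, stood at 16.6 to 21.4 TPM in NUL, 26.3 to 31.3 TPM in LAC and 15.8 to 19.5 TPM in ID2. Its log2 change was 0.63 in LAC (adjusted p = 0.00129, edgeR) and -0.72 in ID2 against LAC (adjusted p = 6.18e-04), both kept without any 1 liver. Cdkn1a, the cell cycle inhibitor p21, fell by 1.03 in ID2 against LAC (adjusted p = 0.0420; 4 of 6 fits without 1 liver lost it, up to 0.169 without LAC_213, and the clock score gave 0.252). Ccng1, cyclin G1, had 0.32 in LAC (adjusted p = 0.0104, and 0.0844 without LAC_213). Sesn2, a stress-induced inhibitor of growth signalling, went against them, with 0.35 in ID2 against LAC (adjusted p = 0.0176; 4 of 6 fits without 1 liver lost it, up to 0.0799 without LAC_213).

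Of 15 other BCL2 family genes, 11 were tested and 3 passed the joint test (Bnip3, Bcl2a1a and Bok), a share near the 27% over all genes tested. Bok, a pore former, fell by 0.62 in LAC (adjusted p = 0.0199, edgeR), lost without LAC_200 (0.10), LAC_213 (0.141) or NUL_226 (0.0527), and had 0.44 in ID2 against LAC (adjusted p = 0.116). Bnip3, which marks mitochondria for removal, had 0.30 in LAC (adjusted p = 0.0686). Bcl2a1a is a protective gene with near-identical copies, so its counts are uncertain. Bcl2 itself was scarce, with stage means between 0.183 and 0.292 TPM. Of 10 binding partners and regulators, 3 passed the joint test, again near that share. Vdac1, the mitochondrial channel, rose by 0.28 in LAC (adjusted p = 0.00786, and 0.0928 on log2(TPM + 1) with limma). Bag3, a co-chaperone that binds BCL2, fell by 1.38 in ID2 against LAC (adjusted p = 0.0130, 0.113 without LAC_213 and 0.116 with the title number range in the model). Dynll1, a dynein light chain that tethers BIM to the cytoskeleton, had 0.54 in LAC (adjusted p = 0.0673) and -0.55 in ID2 against LAC (adjusted p = 0.0637).

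Of 13 death receptor genes and adaptors, 5 passed the joint test (27% of all genes tested did). In LAC against NUL 1 was higher, and in ID2 against LAC 1 was lower, shares near the 5.19% and 7.64% over all genes. Tnfrsf10b, the mouse TRAIL receptor and also a gene of the p53 list, had 1.12 in LAC (adjusted p = 0.0181, edgeR), lost without LAC_240 (0.102) or NUL_227 (0.0591). Cflar, the inhibitor of caspase 8, fell by 0.39 in ID2 against LAC (adjusted p = 0.0111), lost without ID2_31 (0.0517), ID2_39 (0.0509) or LAC_213 (0.0513). Casp8, which cuts BID, was lower than in NUL at ID4 (-0.36, adjusted p = 0.0375; 6 of 8 fits without 1 liver lost it, up to 0.125 without ID4_211), where Bid was higher. Casp8 was also lower than in NUL at ID2 (adjusted p = 0.0174, edgeR), where Bid did not pass (adjusted p = 0.114). That Casp8 call was lost in 3 of 7 fits without 1 liver, up to 0.122 without ID2_31. Tnfrsf1a, the TNF receptor, was higher at ID4 (0.34, adjusted p = 0.0110, lost without ID4_13 at 0.0525 or NUL_226 at 0.0534).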

How the data were processed

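Per the submitters' processing notes, reads were processed with STAR 2.6.1a and RSEM 1.3.1 (mm10, GRCm38). The authors deposited RSEM expected counts and TPM per gene as 1 table for each animal. Reads of 16 animals came from 2 runs and those of 11 from 1 run. Strand handling and the annotation release are not given in the sources used here. Symbols and positions came from GENCODE M21, matched on the identifier for 51633 of 51826 genes. Expected counts were rounded and tested with edgeR 4.0.16 (TMM scaling, filterByExpr, robust quasi-likelihood fit of all 27 libraries in 7 groups, 20 residual degrees of freedom); p-values were Benjamini-Hochberg adjusted over the 16428 genes of each comparison and called under 0.05. Levels are TPM. Bax counts were not whole in 17 libraries and Bid counts in 12, as happens when reads are shared between loci. Alternatives used DESeq2 1.42.0, limma 3.58.1, other scaling, filters, covariates and left-out libraries. The code was tested on simulated counts. Members and lists were chosen with earlier results of these data known. Named list genes passed the joint test or a main comparison, at most 4 per list by joint p; some items are not reported here. For every marker list (hepatocyte, macrophage, T and NK, pancreatic acinar and erythroid), levels are summed TPM. Each animal gave 1 library; p-values measure the spread between animals.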

Additional observations from a re-analysis of the deposited data

Results flagged for a closer look

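In a check of 40 groups, each of 4 or 6 livers, for a single liver far from the rest, 2 stood out, both for Bid; chance alone marks about 1 group in 20. In NUL, library NUL_226 had 2.82 TPM, the low end of a range from 2.82 to 3.25 TPM over 4 livers, and its gap to the next liver was 0.884 of that range. In ID4, library ID4_211 had 5.35 TPM, the high end of a range from 3.99 to 5.35 TPM over 4 livers, with a gap of 0.956 of the range. Without ID4_211 the log2 change of Bid between ID4 and NUL was 0.46 (adjusted p = 0.0469, edgeR), and without NUL_226 it was 0.50 (adjusted p = 0.0386).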

How the results depend on the processing

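All 14 called member differences kept their sign in all settings run, 6 kept their call without any 1 liver and 5 in all settings. For Bmf in LAC against NUL, the log2 change was -2.98 with a threshold of 0.01 (adjusted p = 0.0116), -1.16 on log2(TPM + 1) and -2.99 with only the 2 groups fitted (adjusted p = 0.120), and ran from -3.28 to -1.97 over the fits without 1 liver. Members called in LAC against NUL numbered 4, but 2 on log2(TPM + 0.1), 1 on log2(TPM + 1), 1 at 0.01, and 2 to 4 without 1 liver (2 without LAC_200, LAC_213 or NUL_226). In the joint test they numbered 7, but 8 with DESeq2, 6 with limma on log2(TPM + 1) or log2(TPM + 0.1), 3 at 0.01 and 4 to 8 without 1 liver. For Mcl1 in ID2 against LAC, far from its threshold, the value ran from -0.07 to 0.01 without 1 liver, and the sign changed without ID2_39. Where a call was lost, the cause was not tested. Cell-killing over protective levels had medians of 0.616 in LAC and 0.652 in ID2 in CPM, against 1.84 and 1.48 in TPM, since CPM is not per length. No paired analysis was possible because no title number occurs in more than 1 group. Few counts limit the precision for Pmaip1, with 13 to 93 per library, and for Bmf in LAC, with 37 to 58.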

Other observations

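Of 13 listed genes of necroptosis, pyroptosis and ferroptosis, 12 were tested and 6 passed the joint test, against 27% of all genes tested. In LAC against NUL, 3 were higher and 2 lower (5.19% and 6.00% over all genes), and in ID2 against LAC 2 were higher and 2 lower (8.48% and 7.64%). Acsl4, which loads membranes with the lipids that ferroptosis needs, rose by 1.09 on the log2 scale in LAC (adjusted p = 2.59e-05, edgeR) and fell by 1.31 in ID2 against LAC (adjusted p = 7.85e-06). Gpx4, the enzyme that blocks ferroptosis, moved in the same directions, by 0.61 (adjusted p = 6.04e-04) and -0.53 (adjusted p = 0.00378). All 4 calls were kept without any 1 liver, but that of Gpx4 in ID2 against LAC had an adjusted p of 0.0782 with the title number range in the model. Aifm2, another ferroptosis suppressor, rose by 0.55 in LAC (adjusted p = 0.00556), and its change of -0.36 in ID2 against LAC did not pass (adjusted p = 0.0826).

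Zbp1, a nucleic acid sensor that can trigger necroptosis, rose by 1.86 in ID2 against LAC (adjusted p = 7.23e-04, edgeR), kept without any 1 liver. In LAC against NUL it fell by 1.14 (adjusted p = 0.0193), lost without LAC_213 (0.0887), LAC_240 (0.0860) or NUL_226 (0.0628). Ripk3, the necroptosis kinase, named after its values were seen, rose by 1.11 in ID2 against LAC (adjusted p = 0.00730, and 0.0596 without LAC_213). Macrophage markers moved in the same directions in both comparisons, and their part in these values was not tested.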
